A study of Homo sapiens with 4 samples.

Results

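Carcinoma cells carry on their surface a set of adhesion proteins that are used to recognise epithelial tumor cells and, in several tumor types, the subpopulations that start new tumors. The expression of 9 such genes was described here in FLO-1 parental cells and in FLO-1LM cells: *EPCAM*, *CD44*, *PROM1*, *ALCAM*, *L1CAM*, *ICAM1*, *CEACAM1*, *MUC1* and *MUC13*. They were taken by name, as the rows whose Ensembl identifier maps to these symbols, and all 9 were found among the 63677 genes listed. FLO-1 is a long-used cell line from a human adenocarcinoma of the esophagus. FLO-1LM is a subline grown from a liver metastasis of FLO-1 cells after serial passage through immunodeficient NSG mice, and it was returned to culture for several passages before use. It is therefore a single derivative of a single parental line. RNAseq was carried out on 4 libraries, 2 from each line, of untreated cells harvested before confluency and the day after fresh medium was given. Whether replicate libraries are separate cultures is not stated, and the p-values below measure only the spread between these libraries.

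The 9 proteins differ in structure. EPCAM is a membrane protein of simple epithelia that binds its like on neighbouring cells and can be cut within the membrane to release a signalling fragment. CD44 is the main receptor for hyaluronan, a sugar polymer of the extracellular matrix, and is spliced into many isoforms. PROM1, also known as CD133, is a cholesterol-binding protein of membrane protrusions. ALCAM, L1CAM, ICAM1 and CEACAM1 belong to the immunoglobulin superfamily, whose members bind their like or a partner on another cell, and MUC1 and MUC13 are membrane-bound mucins, proteins with long extracellular stretches that carry sugars linked to serine and threonine. Antibodies to several of them are in use to sort cells with stem-like behaviour, at the level of protein and not of RNA.

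The libraries held between 19060310 and 25920336 counted reads, with 21152 and 21304 genes detected in the FLO-1LM libraries and 23104 and 22908 in the parental ones. After removal of genes with low counts, 17143 genes were tested with edgeR's quasi-likelihood test, and a gene was called changed where its p, adjusted by the Benjamini-Hochberg method over all genes tested, lay under 0.05. Of all genes tested, 382 were called (2.23%), 69 higher (0.402%) and 313 lower (1.83%) in FLO-1LM cells. The chi-square of the counts per degree of freedom was 9.16 between the FLO-1LM libraries and 4.37 between the parental libraries. Sampling noise alone gives a value near 1, so no library was a copy of another. Pairs of a FLO-1LM and a parental library gave 10.6 to 13.4. On this measure the spread between the FLO-1LM libraries was thus not far below the difference between the lines. Markers of simple epithelium stood at a summed 508 and 492 CPM (read counts per library, made comparable by TMM scaling) in the FLO-1LM libraries and 869 and 879 in the parental libraries, and 5 of the 6 tested were called lower in FLO-1LM cells. Squamous, leukocyte and endothelial markers reached at most 17, 7 and 6 counts in any library. Among the fibroblast markers *COL1A1* had 186 to 284 counts and the others at most 11.

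The 9 genes spanned the whole range from absent to abundant. Levels of different genes were compared as TPM, in which each count is divided by the length of the gene's annotated exons and the library is scaled to a common total. *ICAM1* stood first with a mean of 301 TPM, more than 98.7% of the 19488 annotated protein-coding genes, and *CD44* came next with 96.8 TPM, more than 93.7% of them. *L1CAM* followed with 35.3 TPM, *MUC1* with 29.8, *ALCAM* with 14.3, *CEACAM1* with 2.85, *PROM1* with 0.575 and *EPCAM* with 0.292. *MUC13* had no count in any library. All steps of this order were free of overlap between libraries except those between *L1CAM* and *MUC1* and between *PROM1* and *EPCAM*. *ICAM1* was 3.11 times as high as *CD44*, and *ALCAM* 5.04 times as high as *CEACAM1*. The order was the same when the longest transcript took the place of all exons, though the mean of *ICAM1* was then 279 TPM and that of *CD44* 142 TPM.

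**Figure D1:**
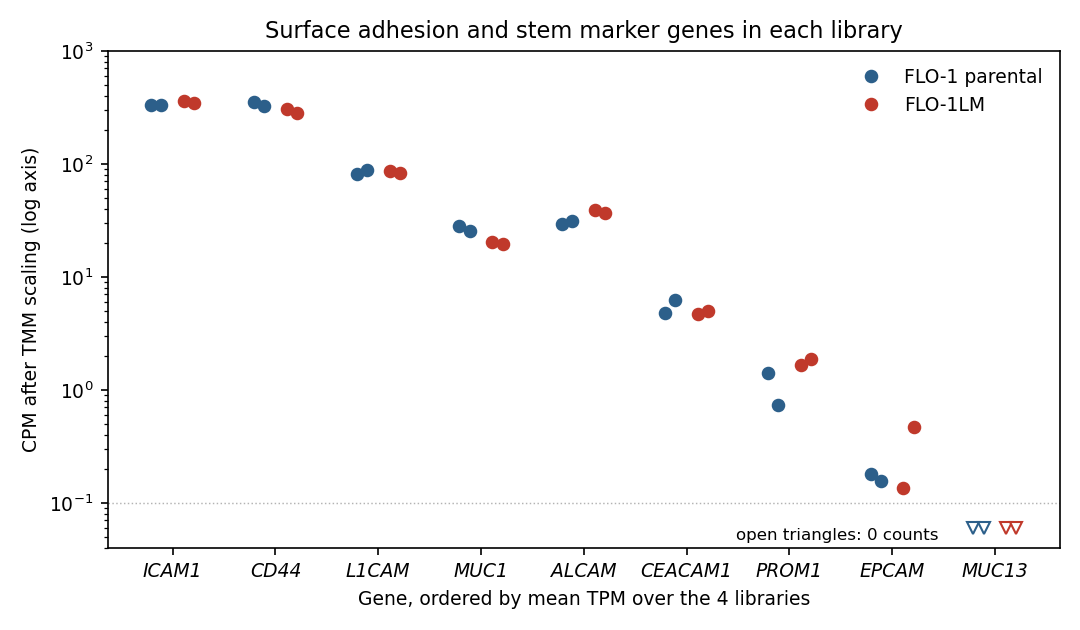
Expression of the 9 genes in each of the 4 libraries, in CPM after TMM scaling on a log axis, with FLO-1LM and FLO-1 parental libraries marked separately. The genes spread from 0 counts (*MUC13*) and at most 0.466 CPM (*EPCAM*) to 356 CPM (*ICAM1*), and the libraries lie farther apart within the low-count genes *PROM1* (0.730 to 1.86 CPM) and *EPCAM* (0.135 to 0.466 CPM) than within the abundant genes.

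Of the 7 genes that passed the filter on low counts, 0 were called between the lines, beside 2.23% of all genes tested (0.402% higher and 1.83% lower). Their smallest adjusted p was 0.0879. At an unadjusted p under 0.05 the test listed 3 of the 7, namely *MUC1* (0.0027), *ALCAM* (0.0083) and *CD44* (0.0099), beside 12.4% of all genes. DESeq2 and limma voom also called 0 of the 7. The CPM of the lines did not overlap for 5 of the 7, beside 42.6% of all genes tested. Their median log2 fold change, FLO-1LM against parental, was -0.01, beside 0.00 over all genes, with 4 lower and 3 higher. The smallest p that exact permutation of 2 against 2 libraries allows is 0.333, so the p-values rest on the variation that the model shares across genes.

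**Figure D2:**
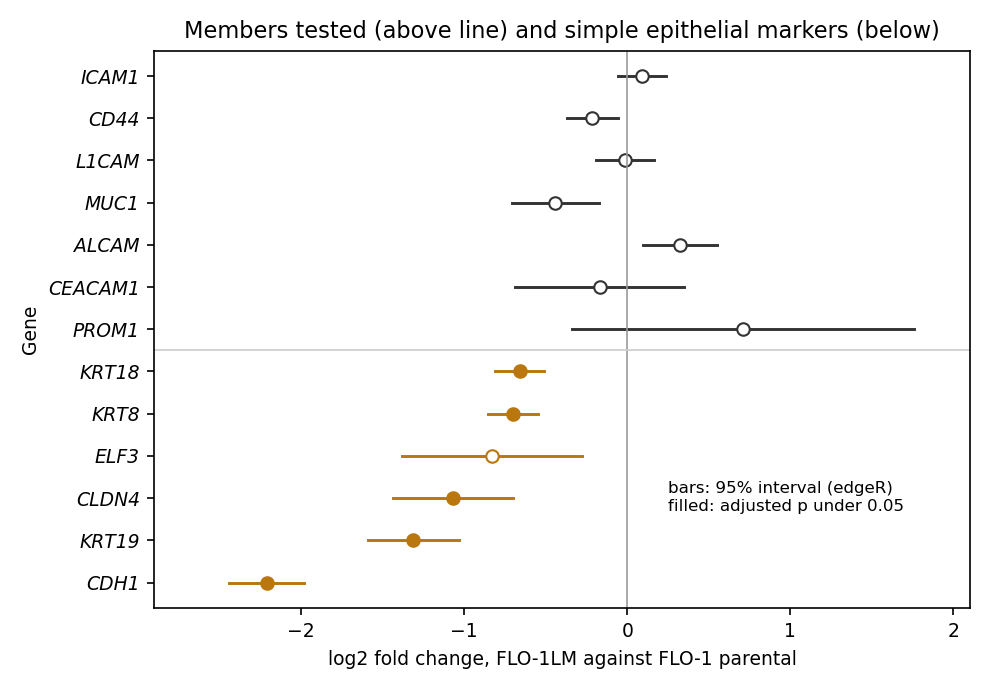
Log2 fold change of each tested gene, FLO-1LM against FLO-1 parental, with the 95% interval of the edgeR fit as bars and filled points for adjusted p under 0.05. The 7 adhesion and stem marker genes are above the line, all with open points, and 6 simple epithelial markers are below it, of which 5 are filled.

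*EPCAM* (ENSG00000119888, chromosome 2, 47572297 to 47614740, forward strand, GRCh37) gave 3 and 12 counts in FLO-1LM cells and 4 and 3 in parental cells. The exact 95% Poisson intervals, which cover counting error only, ran from 0.619 to 8.77 for 3 counts and from 6.20 to 21.0 for 12 counts. The counts were thus at or near the floor of 3 counts in every library but FLO-1LM replicate 2, and the gene did not pass the filter on low counts. On the TPM scale *EPCAM* stood at 0.163 and 0.570 in FLO-1LM cells and at 0.237 and 0.197 in parental cells. A difference between the lines was not detectable at this depth. The other simple epithelial markers were present in the same libraries, and their summed CPM is given above. In a bulk sample fewer expressing cells and less RNA per cell cannot be told apart.

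Partners and regulators of EPCAM were expressed: *CD9*, a tetraspanin, had a mean of 191 TPM, and *SPINT2*, an inhibitor of the membrane protease matriptase, which can cut EPCAM, had 455 TPM. Of the 9 genes listed as EPCAM and its partners, 5 were tested and 0 were called, beside 2.23% of all genes tested. The median log2 fold change of the 5 was -0.04. *CD9* had 355 and 329 CPM in FLO-1LM cells and 381 and 399 CPM in parental cells, lower in both FLO-1LM libraries but with an adjusted p of 0.256. The log2 fold change of *SPINT2* was -0.04, with an adjusted p of 0.891.

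*CD44* (ENSG00000026508, chromosome 11, 35160429 to 35253949, forward strand) had 305 and 283 CPM in the FLO-1LM libraries and 355 and 327 CPM in the parental libraries. Both FLO-1LM libraries were below both parental libraries. The means were 294 ± 15.3 and 341 ± 19.2 CPM (SD, n = 2 per line). FLO-1LM cells differed by a log2 fold change of -0.22 (SE 0.075, 95% interval -0.37 to -0.06), which is a level of 0.862 times the parental one, and the adjusted p by edgeR was 0.192. With each library left out in turn, the log2 fold change ran from -0.27 to -0.16. The summed simple epithelial markers were lower in the same FLO-1LM libraries, and their part in this difference was not tested. The counts are per gene and do not separate the standard from the variant isoforms of CD44.

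A list of 21 genes around *CD44* held those that make, cut or bind hyaluronan, those that tie CD44 to the cytoskeleton, the splicing factors *ESRP1* and *ESRP2*, and other ligands and partners of CD44 (*SPP1*, *CD74* and *SRGN*). Of these, 13 were tested and 0 were called, beside 2.23% of all genes tested. The median log2 fold change of the 13 was 0.04. *EZR*, which encodes ezrin, the linker between the CD44 tail and actin, was the most abundant with 582 TPM, and its log2 fold change was -0.03. RNA of the related linkers moesin and radixin was scarce. *MSN*, for moesin, had 33 and 28 counts in FLO-1LM cells and 16 and 14 in parental cells, and *RDX*, for radixin, had 1 count in all 4 libraries together; both were picked out after their values were seen. *HMMR*, another hyaluronan-binding protein that also works at the mitotic spindle, had 143 and 144 CPM in FLO-1LM cells and 122 and 110 CPM in parental cells. It was higher in both FLO-1LM libraries, with a log2 fold change of 0.31 (95% interval 0.14 to 0.48) and an adjusted p of 0.0526 by edgeR. DESeq2, limma voom and edgeR without the filter on low counts each called *HMMR*.

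*PROM1* (ENSG00000007062, chromosome 4, 15964699 to 16086001, reverse strand) had 37 and 48 counts in FLO-1LM cells and 31 and 14 in parental cells. Scaled to library size these were 1.66 and 1.86 CPM against 1.41 and 0.730 CPM, so that both FLO-1LM libraries were above both parental libraries. This gave a log2 fold change of 0.71 (SE 0.50, 95% interval -0.34 to 1.76, adjusted p 0.638 by edgeR), an interval that runs from 0.792 to 3.38 times the parental level. Parental replicate 2 set much of the value: without it the log2 fold change was 0.33, and without parental replicate 1 it was 1.27. At these counts a difference was not detectable.

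The other prominin, *PROM2*, had 10 and 9 counts in FLO-1LM cells and 17 and 26 in parental cells. Its log2 fold change was -1.40 (95% interval -2.82 to 0.02) with an adjusted p of 0.413, the opposite sign to *PROM1*. Of the 10 matched prominins and other genes used as stem markers, most of them for surface proteins, 4 were tested. Among the 4 tested, 0 were called, beside 2.23% of all genes tested. Of the 10, 4 had no count in any library. The most abundant were *NT5E*, an enzyme that makes adenosine outside the cell, with 68.8 TPM and a log2 fold change of 0.17 (adjusted p 0.399), and *ITGA6*, the alpha-6 integrin chain, with 50.7 TPM and -0.02 (adjusted p 0.948). The levels under this heading thus differed far more between genes than between lines.

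*ICAM1* (ENSG00000090339, chromosome 19, 10381769 to 10397291, forward strand) encodes the ligand by which leukocyte integrins hold on to other cells. It had 305 and 299 TPM in the FLO-1LM libraries and 307 and 292 TPM in the parental libraries. In CPM these were 356 and 347 against 333 and 328, with means of 352 ± 6.43 and 331 ± 3.41 (SD, n = 2 per line). The CPM of the lines did not overlap, but the difference was small, with a log2 fold change of 0.09 (SE 0.070, adjusted p 0.693 by edgeR). The 95% interval ran from 0.960 to 1.18 times the parental level.

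*ICAM1* heads a run of related genes on chromosome 19. *ICAM4*, which lies from 10397631 to 10399198 on the same strand, had 41.8 and 38.3 TPM in FLO-1LM cells and 42.0 and 42.4 TPM in parental cells. *ICAM5*, from 10400628 to 10407454, had 68.4 and 63.6 TPM against 74.2 and 74.1 TPM. Both were picked out after their values were seen, and their log2 fold changes were 0.00 and -0.09. *ICAM3* had 57 to 99 counts and *ICAM2*, on another chromosome, at most 5. *ICAM1* was the highest of the 5 per length in all 4 libraries.

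*L1CAM* (ENSG00000198910, chromosome X, 153126969 to 153151627, reverse strand), a neural adhesion molecule also made by carcinomas at their invasive edge, had 85.5 and 82.7 CPM in the FLO-1LM libraries and 81.8 and 88.0 CPM in the parental libraries. The lines overlapped fully. The log2 fold change was -0.01 (SE 0.084, adjusted p 0.974 by edgeR), and its 95% interval ran from 0.876 to 1.12 times the parental level.

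*ALCAM* (ENSG00000170017, chromosome 3, 105085753 to 105295744, forward strand), which binds its like and the lymphocyte receptor CD6, had 38.9 and 36.6 CPM in the FLO-1LM libraries and 29.5 and 30.9 CPM in the parental libraries. Both FLO-1LM libraries were above both parental libraries, with means of 37.8 ± 1.64 and 30.2 ± 1.02 CPM (SD, n = 2 per line). On the log2 scale the change was 0.32 (SE 0.11, 95% interval 0.09 to 0.55), which is 1.25 times the parental level, and the adjusted p by edgeR was 0.175. With each library left out in turn, the log2 fold change ran from 0.28 to 0.37.

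Of 32 matched immunoglobulin adhesion molecules, the 3 above included, 25 were tested and 0 were called, beside 2.23% of all genes tested. Among the 25, 14 were lower and 11 higher, with a median log2 fold change of -0.02. *BSG*, for basigin, a partner of lactate transporters, was the most abundant with 610 TPM and a log2 fold change of -0.05 (adjusted p 0.853). *BCAM*, a laminin receptor, had 78.4 TPM and -0.08 (adjusted p 0.789). *VCAM1*, which binds another leukocyte integrin and was picked out after its values were seen, had 22 and 37 counts in FLO-1LM cells and 44 in each parental library, with an adjusted p of 0.496. The CPM of the lines did not overlap for 13 of the 25, beside 42.6% of all genes tested.

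*CEACAM1* (ENSG00000079385, chromosome 19, 43011456 to 43065386, reverse strand), an adhesion molecule of epithelia and leukocytes with inhibitory motifs in its long tail, had 105 and 129 counts in the FLO-1LM libraries and 105 and 119 in the parental libraries. In CPM these were 4.71 and 5.01 against 4.76 and 6.21, and the lines overlapped. The log2 fold change was -0.17 (SE 0.25, adjusted p 0.864 by edgeR), with a 95% interval from 0.621 to 1.27 times the parental level. Only *CEACAM19* of its relatives also passed the filter on low counts, with 52 and 92 counts in FLO-1LM cells and 44 and 47 in parental cells and an adjusted p of 0.723. Of the 11 CEACAM genes matched, 8 had no count in any library, and *CEACAM5*, which encodes the carcinoembryonic antigen measured in serum, had 1 count in each FLO-1LM library and 0 in the parental ones. The CEACAM genes are close paralogs, and how reads with several matches were treated is not stated, so their counts are uncertain.

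*MUC1* (ENSG00000185499, chromosome 1, 155158300 to 155162707, reverse strand) showed the smallest p of the 7 genes tested. It had 20.3 and 19.4 CPM in the FLO-1LM libraries and 28.2 and 25.7 CPM in the parental libraries. Both FLO-1LM libraries were below both parental libraries, with means of 19.9 ± 0.613 and 26.9 ± 1.81 CPM (SD, n = 2 per line). The log2 fold change was -0.44 (SE 0.13, 95% interval -0.71 to -0.17), which is 0.736 times the parental level, and the adjusted p by edgeR was 0.0879. With each library left out in turn, the log2 fold change ran from -0.51 to -0.37. The summed simple epithelial markers were lower in the same FLO-1LM libraries, by the values given above, and their part in this difference was not tested. The tandem repeats of *MUC1* attract reads with several matches, which adds an uncertainty that the counts do not show.

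*MUC13* (ENSG00000173702, chromosome 3, 124624289 to 124672663, reverse strand), a mucin of the gut epithelium with growth-factor-like domains, had 0 counts in all 4 libraries. The floor of 3 counts, which covers counting error only, corresponds to 0.135 and 0.117 CPM in the FLO-1LM libraries and 0.136 and 0.156 CPM in the parental libraries. *MUC1* accounted for most of the expression among the 12 membrane mucins, of which 4 were tested and 4 had no count. Among the 4 tested, 0 were called, beside 2.23% of all genes tested. The median log2 fold change of the 4 tested was -0.32. *MUC3A* had 102 to 110 counts in the 4 libraries with a log2 fold change of -0.19 (adjusted p 0.837), *MUC16*, the source of the CA-125 antigen, had 32 and 8 counts against 49 and 28 (-1.10, adjusted p 0.504), and *MUC20* had 6 to 13 counts (0.43, adjusted p 0.89). No secreted mucin or trefoil peptide exceeded 6 counts in any library, and 0 of the 9 were tested.

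**Figure D3:**
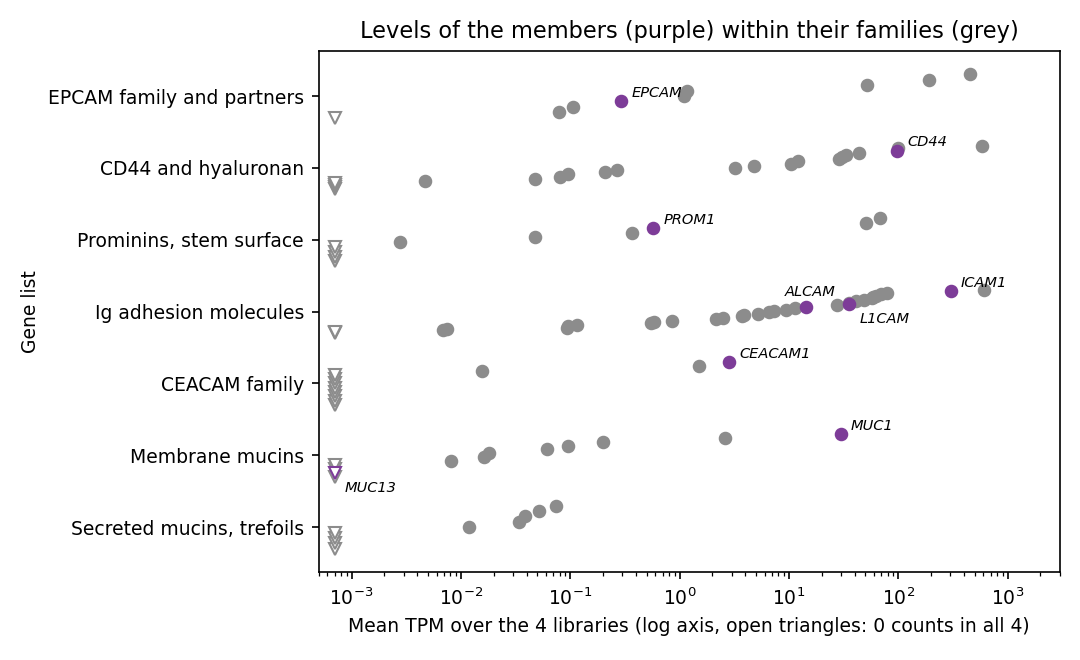
Mean level over the 4 libraries of each gene of 7 related lists, in TPM on a log axis, with the 9 genes described here in purple and named and their relatives in grey. Open triangles at the left are genes with 0 counts in all 4 libraries, which include *MUC13* and 8 CEACAM genes, whereas *ICAM1*, *CD44* and *MUC1* sit near the upper end of their lists.

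The sequences before the transcription starts of *ICAM1*, *CEACAM1* and *MUC13* are shown because these genes stood at the upper end, low and at 0 in both lines. A promoter sequence from RefSeq (GRCh38.p14 table) was found for 8 of the 9 genes, not for *EPCAM*. In the 250 bases before the start, *ICAM1* had 23 CG dinucleotides, *CEACAM1* had 1 and *MUC13* had 5, and 76.3%, 14.7% and 38.1% of the 35116 promoters in the table had as few or fewer. The median of all promoters was 11, with quartiles of 3 and 23. Printed are 220 of these bases, without the 30 nearest the start, from 5′ to 3′ on the strand of the gene, with each CG in capitals; CG reads the same on both strands. By exact match in GRCh37, the bases of *ICAM1* lie at chr19:10381546-10381765 on the forward strand. Those of *CEACAM1* lie at chr19:43032664-43032883 and those of *MUC13* at chr3:124653626-124653845, both on the reverse strand. No annotated exon of the gene itself overlaps its printed bases, and exons of other genes were not compared.
ICAM1: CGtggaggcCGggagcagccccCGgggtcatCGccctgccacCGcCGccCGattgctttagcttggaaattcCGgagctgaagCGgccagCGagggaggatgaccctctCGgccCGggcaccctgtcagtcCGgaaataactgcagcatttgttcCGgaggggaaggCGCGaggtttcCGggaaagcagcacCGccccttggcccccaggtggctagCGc
CEACAM1: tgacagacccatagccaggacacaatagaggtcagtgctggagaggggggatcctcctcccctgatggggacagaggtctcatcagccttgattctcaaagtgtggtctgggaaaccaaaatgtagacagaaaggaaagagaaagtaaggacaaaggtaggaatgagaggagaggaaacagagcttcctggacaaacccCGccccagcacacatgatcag
MUC13: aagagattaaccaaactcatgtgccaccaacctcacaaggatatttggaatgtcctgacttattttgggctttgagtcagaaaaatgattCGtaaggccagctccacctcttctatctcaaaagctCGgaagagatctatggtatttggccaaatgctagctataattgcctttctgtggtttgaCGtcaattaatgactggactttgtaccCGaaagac

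The printed stretches held 19 CG in *ICAM1*, 1 in *CEACAM1* and 4 in *MUC13*. *CD44* had 15 CG in its 250 bases and *ALCAM* 20, *MUC1* had 11 and 12 at its listed starts, *L1CAM* had 8 and 5, and the starts of *PROM1* had from 5 to 26. The count of CG did not follow the order of the levels, since *ALCAM*, at 14.3 TPM, had more CG than *CD44*, at 96.8 TPM. Where a gene has several listed starts, the start used in these cells was not determined. This is a description of the letters only, and DNA methylation was not measured.

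Genes on the opposite strand overlap the exons of 3 of the 9 genes, and the strand setting of the counting is not stated, so the reads of such pairs cannot be told apart with certainty. The antisense gene *ICAM4-AS1* shares 815 exon bases with *ICAM1* and had 25 and 21 counts in FLO-1LM cells and 92 and 82 counts in parental cells. It fell in FLO-1LM cells, with a log2 fold change of -2.13 (SE 0.37) and an adjusted p of 0.00316 by edgeR. Its counts equalled 0.315% and 0.235% of those of *ICAM1* in the FLO-1LM libraries and 1.25% and 1.30% in the parental libraries. *CD44-AS1* had 1 and 3 counts against 19 and 12, which is 0.0147% to 0.243% of *CD44*, with an adjusted p of 0.115. *LIPE-AS1*, opposite *CEACAM1*, had 17 and 10 counts against 20 and 20, or 16.2% and 7.75% of *CEACAM1* against 19.0% and 16.8%. The 5 opposite-strand partners lie on only 3 of the 9 genes. Of the 5, 4 had a lower share of their partner's counts in both FLO-1LM libraries than in both parental libraries. For *LIPE-AS1* the nearest libraries of the lines were almost equal, at 16.2% and 16.8%. *CD44-DT* had a higher share (0.648% and 0.508% against 0.422% and 0.366%). On a different measure, the CPM of single genes, 42.6% of all genes tested did not overlap between the lines. No such figure over all genes was computed for these ratios of counts. Of the 5, 1 was called, beside 2.23% of all genes tested. All opposite-strand genes that share exon bases with the 9 genes were taken.

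**Figure D4:**
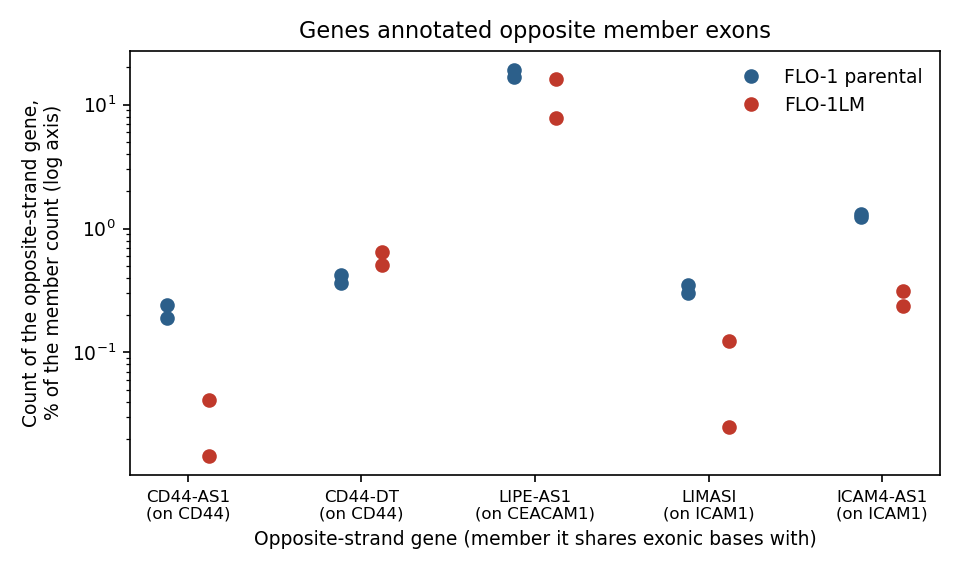
Counts of opposite-strand genes as a percentage of the counts of the gene they overlap, in each of the 4 libraries, on a log axis. *ICAM4-AS1* is at 0.315% and 0.235% of *ICAM1* in the FLO-1LM libraries and at 1.25% and 1.30% in the parental libraries.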

How the data were processed

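RNA of FLO-1LM and FLO-1 parental cells was sequenced from directional libraries. The submitters' processing notes name bcl2fastq 2.17, Trimmomatic 0.30 and GRCh37. The authors deposited raw counts per Ensembl gene, without normalization, and neither the counter, the strand option nor the handling of multi-mapped reads is given in the sources used here. Lines were assigned from the sample labels.

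Counts were analysed in R 4.3.3 with edgeR 4.0.16 (filterByExpr with minimum count 10 in 2 or more libraries, minimum total 15, TMM, glmQLFit, glmQLFTest), and p-values were adjusted over all 17143 genes tested. The SE was taken as |log2 fold change| over the root of the F statistic. Alternatives were DESeq2 1.42.0, limma voom (limma 3.58.1), other scaling, other filters, the mitochondrial genes left out and each library left out. Scripts were tested on simulated data. TPM used exon lengths of GENCODE mapped to GRCh37, a later annotation than the one counted on.

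The genes and lists were chosen with earlier results of these data known. Named genes were the 9 described, relatives in the EPCAM, prominin, CEACAM and mucin families past the filter, and, in each other list, up to 4 called genes of smallest p and up to 2 uncalled genes of highest level. Genes of the nearest pattern were to be named only for a called gene, so none was. Of the listed symbols 3 (*CD24*, *PECAM1*, *CEACAM20*) matched no row and were not analysed here. Another gene of these lists is not reported here.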

Additional observations from a re-analysis of the deposited data

How the results depend on the processing

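Over all genes, 382 calls became 577 without the filter on low counts, and 116 to 1052 when each library was left out in turn. Calls among the 9 genes, 0 beside 2.23% of all genes tested, stayed at 0 under every alternative that kept all 4 libraries. Without FLO-1LM replicate 1 the fit called *CD44* and *MUC1*, and without FLO-1LM replicate 2 it called *ALCAM* alone. Calls over all genes also moved widely in such fits, as given above. Calls among the related genes, 0 of 85 tested, became 1 with DESeq2, 1 with limma voom and 1 without the filter, each time *HMMR*, and 0 to 6 on leaving out a library. On leaving out a library, the log2 fold change of *L1CAM* ran from -0.066 to 0.040 and that of *CEACAM1* from -0.35 to 0.030, positive for both without parental replicate 2 and for *L1CAM* also without FLO-1LM replicate 2 (0.011), and the cause was not tested. With a library left out, the lone library of its line is assumed to vary like the other line. The mean level of *ICAM1* moved from 301 to 279 TPM with the length of the longest transcript. Other scalings moved the median log2 fold change of all genes by at most 0.031. No paired analysis was possible because the labels give the libraries no shared replicate numbers, and the numbers used here only name libraries in deposit order. Depth limits *EPCAM*, *PROM1* and *MUC13*. The counts of *EPCAM* and *MUC13* allow large differences in either direction. For *PROM1* the interval of the edgeR fit, from 0.792 to 3.38 times the parental level, allows a large rise in FLO-1LM cells but only a small fall.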

Other observations

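Genes around these proteins were expressed at levels of their own. Among 25 genes of mucin-type O-glycosylation, the addition of sugars to serine and threonine, 18 were tested. Of the 18, 0 were called, beside 2.23% of all genes tested. They were 14 lower and 4 higher, beside 8504 lower and 8639 higher of all genes tested. At an unadjusted p under 0.05 by edgeR, 2 of the 18 were listed, beside 12.4% of all genes. The median log2 fold change of the 18 was -0.10. The most abundant not called were *GALNT2*, an enzyme that attaches the initial sugar, with 64.3 TPM and a log2 fold change of -0.03 (adjusted p 0.934), and *C1GALT1C1*, the chaperone of the enzyme that extends it, with 62.5 TPM and 0.24 (adjusted p 0.346). Among 13 genes of membrane proteolysis, which cut EPCAM, CD44, L1CAM and ALCAM from the surface, all 13 were tested. Of the 13, 0 were called, beside 2.23% of all genes tested, with a median of 0.02 for the 13. Parts of the gamma-secretase complex led in level, *PSENEN* with 212 TPM (0.19, adjusted p 0.344) and *APH1A* with 157 TPM (0.07, adjusted p 0.803). Among 12 integrins, lectins and other binding partners of these proteins, 8 were tested and 0 were called, beside 2.23% of all genes tested. The median of the 8 was -0.17. *LGALS1*, the sugar-binding galectin-1, had 1748 TPM and -0.14 (adjusted p 0.418). *LGALS3*, galectin-3, had 38.1 and 39.5 CPM in FLO-1LM cells and 28.9 and 33.2 CPM in parental cells, without overlap, and a log2 fold change of 0.33 (adjusted p 0.184).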
